A study of Mus musculus with 70 samples.

Results

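The 8 genes described here encode receptors that steer T cells between blood, lymphoid organs and tissues: Ccr7, S1pr1, S1pr4, Gpr183, Cxcr3, Cxcr4, Cxcr5 and Cxcr6. The list was drawn up with earlier results of these data known, and each gene was mapped to 1 Ensembl gene out of 53465 gene IDs in the table. All 8 passed the filter on low values and were tested together with the other genes, 13173 in all.

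The data were RNA-seq libraries of Foxp3+ regulatory T cells (Tregs) sorted from 5 male mice, 16.6 to 18.6 weeks old. The labels name no treatment. All groups carried the allele Foxp3tm4(YFP/icre)Ayr on a B6.129(Cg) background (a line of the Jackson Laboratory), in which the Foxp3 locus drives a YFP and Cre fusion, so YFP marked the Tregs and there was no group without the allele. CD4+ YFP+ cells free of the markers of other lineages, CD8 and CD11b among them, were sorted in 3 gates. ST2+ CD44hi Tregs and ST2- CD44hi Tregs came from 6 sites: the visceral adipose tissue of the abdomen (VAT), the lungs, the colon, the skin of the back, the spleen and the blood. CD44lo CD62L+ Tregs, the resting or central Tregs, came only from spleen and lungs, which gives 14 groups. ST2 is the receptor of IL-33 and is encoded by Il1rl1, and a high CD44 level marks effector Tregs. Each library held 220 sorted cells of 1 mouse, except for 55 to 220 cells in blood ST2+, 166 to 220 in blood ST2- and 93 to 220 in VAT ST2- Tregs. Lungs, VAT, colon and skin were digested with enzymes before the sort while blood and spleen were not, so tissue and digestion cannot be told apart. Only spleen and lung cells are described as enriched for CD4+ T cells before the sort, a step that also goes with tissue.

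Of 70 libraries, 67 had more than 1000000 counts and were used, with totals of 1304560 to 2759926. Groups had 5 libraries, except 4 for blood ST2+ and 3 for colon ST2+ Tregs. Levels are given as counts per 1000000 (CPM), scaled by the trimmed mean of M values (TMM). The sort labels held: Foxp3 was between 105.1 and 413.7 CPM in 67 of 67 libraries, and Il1rl1 was 230.0 to 1614 CPM in ST2+ libraries against 0 to 194.6 in ST2- CD44hi and 0 to 4.686 in CD44lo libraries. Cd44, at 38.5 to 79.79 CPM in CD44lo libraries, overlapped with the 41.91 to 1011 CPM of ST2- CD44hi libraries. The 3 colon ST2+ libraries stood apart in a list of 10 myeloid genes, which summed to 1690 to 1910 CPM there with 0 of 10 genes at 0, against group medians of 8.131 to 222.9 CPM elsewhere. Their 10 stromal and epithelial genes summed to 470.5 to 1153 CPM (3 of 10 at 0), against group medians of 163.2 to 399.3 CPM elsewhere. Colon ST2- mouse 2 also held more of both lists than the other colon ST2- libraries, at 668.4 and 1003 CPM, and without mouse 2 the only colon ST2- call against spleen that was lost was S1pr4 (adjusted p = 0.198). In VAT, the list of 7 B cell genes summed to 2065 CPM in ST2+ mouse 5 and 1488 CPM in ST2- mouse 3. Of the 7 genes, 3 had no count in VAT ST2+ and 2 had none in VAT ST2- libraries, Pax5 among them in both. Each count was also taken without the colon ST2+ libraries and without the VAT library of each population richest in B cell genes, and calls that changed are named below. In bulk RNA, fewer cells with a transcript and less transcript per cell cannot be told apart.

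A T cell enters a lymph node through the venules with CCR7, whose ligands CCL19 and CCL21 also hold it in the T cell zone. It leaves along a gradient of sphingosine-1-phosphate (S1P), which is high in blood and lymph and is sensed by S1PR1; CD69 removes S1PR1 from the surface, and the factor KLF2 drives its gene. Within lymphoid tissue, GPR183 (EBI2) follows oxysterols to the edges of follicles and CXCR5 follows CXCL13 into them. CXCR3 follows the interferon-induced ligands CXCL9 and CXCL10 to type 1 inflammation, CXCR6 binds CXCL16 and is common on T cells that stay in tissues, and CXCR4 binds CXCL12 of stromal cells.

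The genes lie on 7 chromosomes of the GRCm38 build. Ccr7 is at chr11:99144196-99155077, S1pr1 at chr3:115710433-115715072, S1pr4 at chr10:81497747-81500132, Gpr183 at chr14:121952551-121965195, Cxcr3 at chrX:101731535-101734269, Cxcr4 at chr1:128588199-128592293 and Cxcr5 at chr9:44511787-44561877, all on the minus strand. Cxcr6 is on the plus strand at chr9:123806475-123811760. A gene on the other strand overlaps Gpr183 (Ubac2), Cxcr5 (Bcl9l) and Cxcr6 (Fyco1), and since the strand setting of the counting is not given in the sources used here, reads in those overlaps may belong to either gene.

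Promoters are shown for Cxcr3 and Cxcr6, which were near 0 in central Tregs and higher in CD44hi Tregs of the same organ. The other is that of Cxcr4, the member that was called higher in lungs, VAT, colon and skin than in spleen in every population sorted there. The sequences are those of RefSeq on GRCm38.p6, read 5′ to 3′ on the gene's strand, with bases inside the Ensembl gene model left out. Capitals mark matches to short motifs searched on both strands of the 250 bases before the start: TGTGGT for RUNX factors, TCACAC for T-box factors, TGANTCA for AP-1 and CACCC for KLF factors.
Cxcr3 (chrX:101734270-101734397, minus strand): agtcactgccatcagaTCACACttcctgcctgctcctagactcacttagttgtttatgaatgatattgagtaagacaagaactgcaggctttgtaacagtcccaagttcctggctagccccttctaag
Cxcr6 (chr9:123806227-123806474, plus strand): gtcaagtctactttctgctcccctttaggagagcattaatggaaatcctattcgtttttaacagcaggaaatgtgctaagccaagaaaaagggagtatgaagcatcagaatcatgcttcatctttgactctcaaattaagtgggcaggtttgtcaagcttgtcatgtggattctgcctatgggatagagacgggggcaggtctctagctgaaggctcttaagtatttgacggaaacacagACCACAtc
Cxcr4 (chr1:128592300-128592549, minus strand): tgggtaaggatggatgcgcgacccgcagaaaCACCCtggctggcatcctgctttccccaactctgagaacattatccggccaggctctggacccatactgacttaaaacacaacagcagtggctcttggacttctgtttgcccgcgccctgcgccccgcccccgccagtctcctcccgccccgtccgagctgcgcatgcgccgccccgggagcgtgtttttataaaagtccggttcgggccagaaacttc
Cxcr3 held TCACAC at 234 to 229 bases before its start, and the RUNX letters at 110 to 105 bases, in the 122 bases not printed. Cxcr6 held the RUNX letters as ACCACA at 10 to 5 bases, and Cxcr4 held CACCC at 219 to 215 bases. Of 32851 promoters of the same length, 4614 held TGTGGT, 4039 TCACAC (12.3%), 2217 TGANTCA (6.75%) and 17087 CACCC (52.0%), and no match overlapped with another in these 3 promoters. The Cxcr4 promoter was 61.2% G and C, against 45.3% for the Cxcr3 stretch and 43.5% for Cxcr6.

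**Figure D1:**
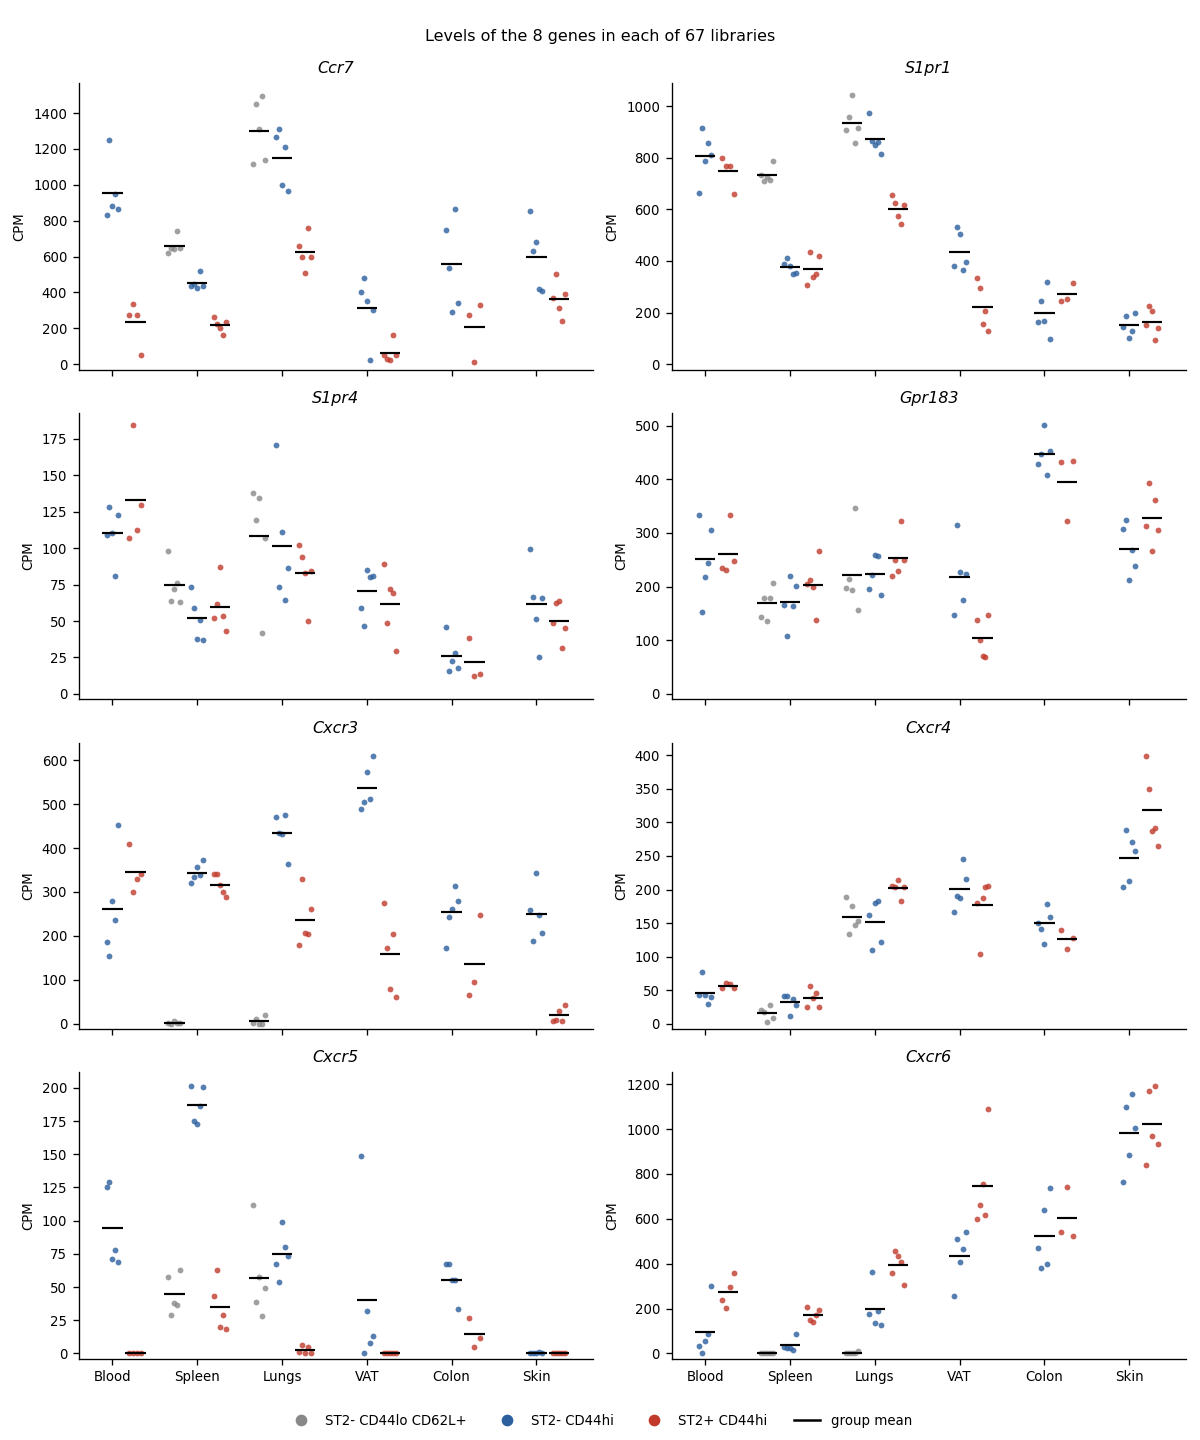
Level of each gene in CPM (vertical axis) in each library, by tissue (horizontal axis); grey points are CD44lo CD62L+, blue ST2- CD44hi and red ST2+ CD44hi Tregs, and a black bar is the group mean. Ccr7 peaked in lung CD44lo Tregs (mean 1301.5 CPM), Cxcr6 in skin ST2+ Tregs (1021.5 CPM), and Cxcr5 was at 0 in every blood and VAT ST2+ library.

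Every gene had its own order of groups. Ccr7 was highest in lung central Tregs at 1301.5 ± 173 CPM (SD, n = 5) and lowest in VAT ST2+ Tregs at 62.7 ± 57.3 CPM (n = 5), a 20.7-fold span. S1pr1 spanned 6.17-fold, from 936 ± 68.8 CPM in lung central Tregs to 152 ± 40.2 CPM in skin ST2- Tregs (n = 5 each). S1pr4, another S1P receptor of lymphocytes, spanned 6.19-fold, from 133 ± 35.3 CPM in blood ST2+ Tregs (n = 4) to 21.5 ± 14.6 CPM in colon ST2+ Tregs (n = 3). The lymph node and egress receptors were thus at their highest mean in blood or in the lungs. The paper reports that an antibody given into the blood labelled most lung Tregs. It states that lung and spleen Tregs may have held circulating cells, though they were unlikely to be only those. The part of circulating cells in the lung levels was not tested. Gpr183 spanned the least, 4.27-fold, from 448 ± 35.0 CPM in colon ST2- to 105 ± 36.8 CPM in VAT ST2+ Tregs (n = 5 each).

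The CXC receptors spanned more. Cxcr3 ranged from 537 ± 51.4 CPM in VAT ST2- to 1.57 ± 2.81 CPM in spleen central Tregs (342-fold), and Cxcr6 from 1021.5 ± 154 CPM in skin ST2+ to 1.04 ± 1.20 CPM in spleen central Tregs (978-fold), with n = 5 in each. Cxcr4 ranged from 318 ± 55.0 CPM in skin ST2+ to 15.3 ± 10.2 CPM in spleen central Tregs (20.9-fold, n = 5 each). Cxcr5 was highest in spleen ST2- Tregs at 187 ± 13.8 CPM (n = 5) and had no count in the 4 blood and 5 VAT ST2+ libraries, where 3 counts over the group would be 0.348 and 0.296 CPM. Few neighbours in these orders differed beyond their spread: of 13 steps between adjacent groups, the library ranges did not overlap at 2 steps for S1pr1 and for Cxcr3, at 1 for Ccr7, Cxcr4, Cxcr5 and Cxcr6, and at 0 for S1pr4 and Gpr183. How often library ranges lie apart in other genes was not counted, here or in the comparisons below. The steps for S1pr1 were from spleen central (733 CPM) to lung ST2+ (603 CPM) and from there to VAT ST2- Tregs (435 CPM).

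Per kilobase of exon, which allows genes to be compared, the leading member changed with the tissue. Ccr7 had the highest level per kilobase in both central groups, in lung ST2+ and in blood, spleen, lung and colon ST2- Tregs. Cxcr3 led in VAT ST2- Tregs at 310.5 CPM per kilobase and in spleen ST2+ Tregs at 183 CPM per kilobase, and S1pr1 led in blood ST2+ Tregs at 246 CPM per kilobase. Cxcr6 led in both skin groups, at 509 (ST2-) and 529 (ST2+) CPM per kilobase, and in VAT and colon ST2+ Tregs at 386 and 312 CPM per kilobase.

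The first comparison asked how ST2+ CD44hi Tregs differ from ST2- CD44hi Tregs of the same tissue. Ccr7 was at a lower mean in ST2+ Tregs of all 6 tissues, Cxcr3 in all but blood, and Cxcr6 was at a higher mean in all 6 tissues. Cxcr5 was at a lower mean in ST2+ Tregs of all tissues but skin, where each population had 1 count. A gene was called when edgeR's quasi-likelihood test over all 13173 genes gave an adjusted p (Benjamini-Hochberg) no higher than 0.05 and the fold change was 1.5 or more. Members were called in 12 of 48 gene and tissue pairs: 3 of 8 in blood, where 4.04% of all genes were called, 5 in VAT (3.12%), 2 in spleen (0.319%), 1 in lungs (0.782%), 1 in skin (0.213%) and 0 in colon (0.0683%). In colon, 3 members had an unadjusted p under 0.05, and DESeq2 and limma also called 0 of 8.

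**Figure D2:**
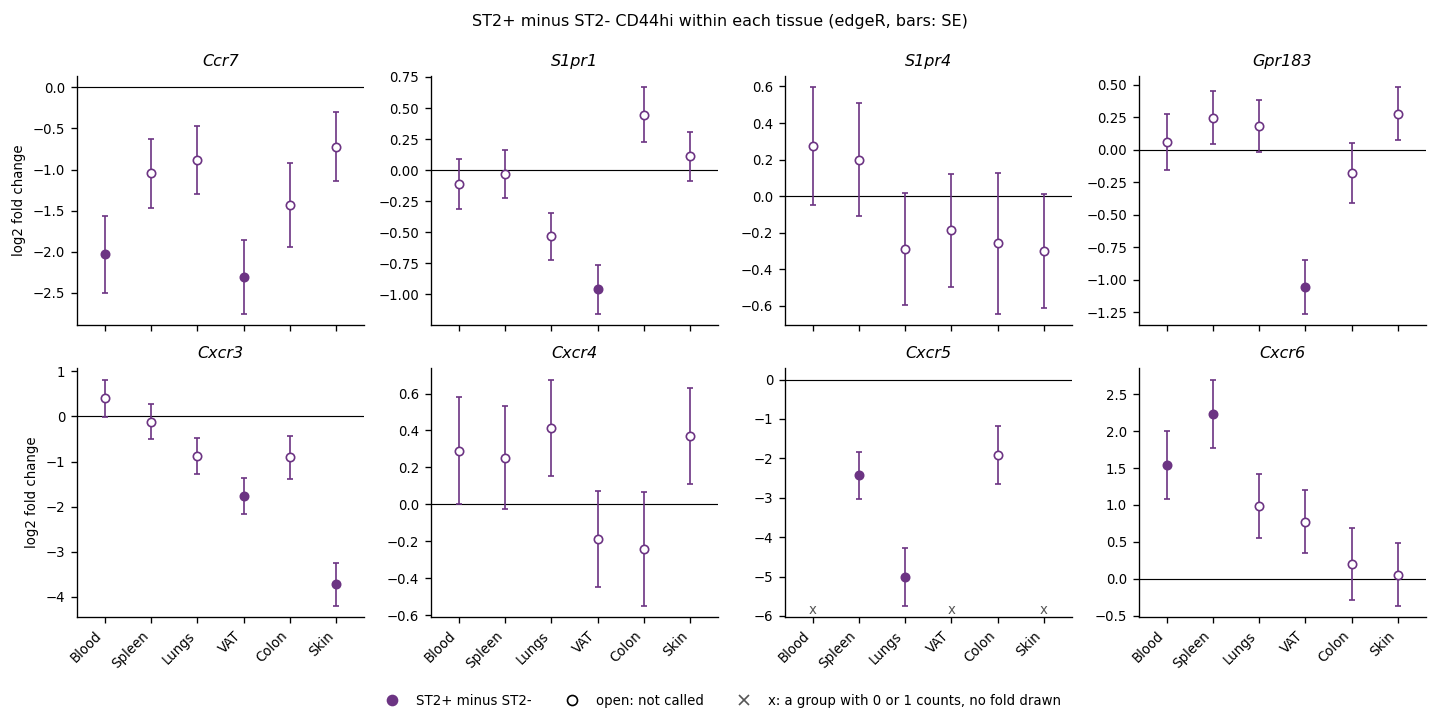
Log2 fold change (± SE) of ST2+ minus ST2- CD44hi Tregs for each gene (panels) in each tissue; filled points were called, open points were not, and a cross marks a group with 0 or 1 counts, for which no fold is drawn. The called values were below 0 for Ccr7, S1pr1, Gpr183, Cxcr3 and Cxcr5 and above 0 for Cxcr6 (2.23 in spleen).

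Cxcr5, the follicular receptor, separated the populations most sharply. In blood, ST2- Tregs of mice 1 to 5 had 125, 129, 71.1, 77.5 and 68.5 CPM, and all 4 ST2+ libraries had 0, which is at least 271-fold lower by the counts summed over each group (adjusted p = 5.95e-08). In spleen, ST2- Tregs had 202, 175, 173, 186 and 201 CPM and ST2+ Tregs had 43.2, 62.9, 19.9, 28.9 and 18.7 CPM, so the ranges did not overlap and the level was 5.40-fold lower (log2 fold change -2.43 ± 0.60 SE, adjusted p = 0.048). It was the only gene of 13173 called lower in spleen ST2+ Tregs (0.00759%). That call was lost in 6 of 20 other settings, among them leaving out mouse 1, 3, 4 or 5, with an adjusted p of up to 0.428.

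In lungs, Cxcr5 was at 67.3, 53.5, 98.6, 80.4 and 73.0 CPM in ST2- Tregs and at 0.882, 6.07, 0.448, 4.68 and 0 CPM in ST2+ Tregs, again without overlap (log2 fold change -5.01 ± 0.73, adjusted p = 1.56e-05). The VAT comparison rested largely on 1 mouse. ST2- Tregs of VAT had 149 CPM in mouse 1 and 0, 32.0, 8.0 and 13.3 CPM in mice 2 to 5, while all 5 ST2+ libraries had 0. By the summed counts, 424 of 532 from mouse 1, the level was at least 173-fold lower in ST2+ Tregs (adjusted p = 1.61e-07), and at least 48.3-fold lower without the ST2- library of mouse 1. The call was lost when only these 10 libraries were fitted (adjusted p = 0.086). In colon, ST2- Tregs had 67.03, 67.03, 55.1, 55.0 and 33.2 CPM and ST2+ Tregs 26.4, 5.16 and 11.5 CPM, which did not overlap but was not called (log2 fold change -1.92 ± 0.73, adjusted p = 0.713). In skin, 1 count was found in all 5 ST2- libraries together and 1 in the 5 ST2+ libraries, so no fold can be given.

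Ccr7, the lymph node homing receptor, was lower in ST2+ than in ST2- Tregs of the same mouse in 4 of 4 mice in blood, 5 of 5 in spleen, lungs and skin, 3 of 3 in colon and 4 of 5 in VAT. Blood ST2- Tregs had 832, 1249, 881, 951 and 862 CPM and ST2+ Tregs of mice 2 to 5 had 275, 335, 275 and 49.7 CPM, a 4.09-fold difference (log2 fold change -2.03 ± 0.47, adjusted p = 0.00447). Without mouse 5, whose ST2+ library was lowest, the blood call was lost (adjusted p = 0.0706). In VAT, ST2- Tregs had 401, 478, 353, 24.5 and 302 CPM and ST2+ Tregs 49.8, 26.9, 25.3, 163 and 48.6 CPM, so mouse 4 was the lowest of the first and the highest of the second group (log2 fold change -2.30 ± 0.45, adjusted p = 0.000526). The VAT call was lost with limma, with and without the mouse as a block, and when only the 2 groups were fitted (adjusted p up to 0.302).

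Ccr7 was not called in the other tissues, although the ranges did not overlap in spleen and lungs. Spleen ST2- Tregs had 435, 444, 423, 517 and 433 CPM and ST2+ Tregs 264, 226, 202, 161 and 237 CPM (log2 fold change -1.05 ± 0.42, adjusted p = 0.668). Lung ST2- Tregs had 1269, 1311, 999, 1210.3 and 964 CPM and ST2+ Tregs 659, 597, 509, 759 and 598 CPM (log2 fold change -0.88 ± 0.42, adjusted p = 0.447). Both differences were called by limma and by a fit of the 2 groups alone. Colon and skin ranges overlapped (log2 fold changes of -1.43 ± 0.51 and -0.72 ± 0.42).

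Cxcr3, the receptor of type 1 inflammation, was called lower in ST2+ Tregs of VAT and skin and in no other tissue. In skin, ST2- Tregs had 259, 189, 344, 247 and 206 CPM, and ST2+ Tregs had 6.39, 9.27, 28.5, 6.68 and 42.4 CPM. Every ST2+ library was thus below every ST2- library, by 13.2-fold on average (log2 fold change -3.72 ± 0.47, adjusted p = 3.82e-07). Cxcr3 was called in skin under all 20 other settings. In VAT, ST2- Tregs had 489, 505, 573, 511 and 609 CPM and ST2+ Tregs 274, 172, 78.6, 204 and 60.1 CPM, again without overlap (log2 fold change -1.76 ± 0.41, adjusted p = 0.00434). Lung ST2- Tregs had 363 to 476 CPM and ST2+ Tregs 178 to 330.4 CPM, which did not overlap and was not called (log2 fold change -0.88 ± 0.40, adjusted p = 0.414), though limma and the fit of the 2 groups alone called it. In spleen, 320.1 to 372 CPM in ST2- and 288 to 340.2 CPM in ST2+ Tregs overlapped (log2 fold change -0.12 ± 0.39).

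**Figure D3:**
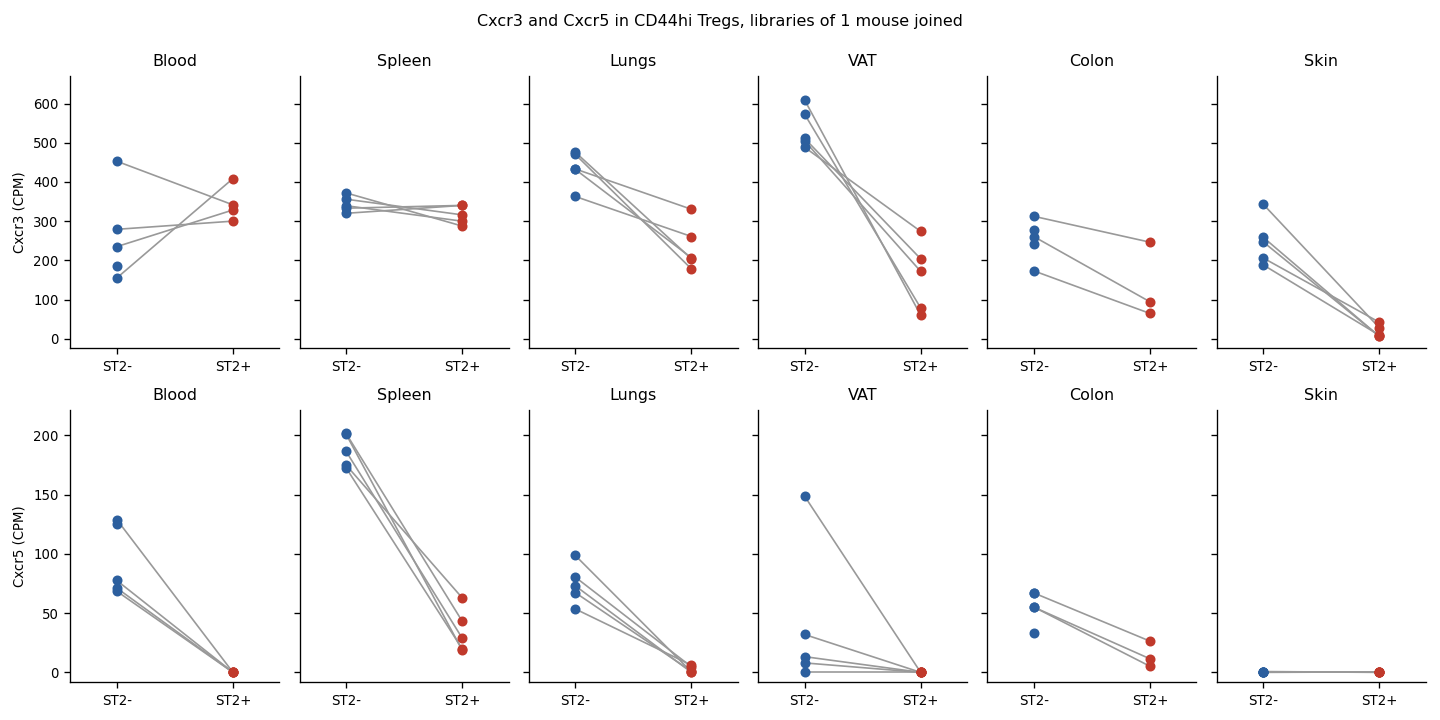
Level in CPM of Cxcr3 (top row) and Cxcr5 (bottom row) in ST2- and ST2+ CD44hi Tregs of each tissue, with the libraries of 1 mouse joined by a line. All 5 lines fell for Cxcr3 in VAT and skin, and for Cxcr5 in spleen and lungs; the Cxcr5 level of VAT ST2- Tregs in mouse 1 (149 CPM) stood above the other 4 mice.

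Cxcr6, the CXCL16 receptor, moved the other way and was called higher in blood and spleen. Spleen ST2- Tregs had 28.0, 25.1, 22.6, 16.99 and 88.2 CPM and ST2+ Tregs 208, 150.2, 139, 171 and 192 CPM, with no overlap and a 4.70-fold difference (log2 fold change 2.23 ± 0.47, adjusted p = 0.00779). Blood ST2- Tregs had 31.6, 0, 56.0, 86.2 and 300.2 CPM and ST2+ Tregs of mice 2 to 5 had 238, 204, 296 and 360.2 CPM, so mouse 5 alone made the ranges overlap (log2 fold change 1.54 ± 0.47, adjusted p = 0.0405). The spleen call was lost in 4 of 20 settings (adjusted p up to 0.262) and the blood call in 8 of 20, DESeq2 among them (up to 0.474). In VAT, ST2- Tregs had 255, 509.5, 408, 464 and 542 CPM and ST2+ Tregs 599, 659.7, 757, 618 and 1091 CPM, higher in 5 of 5 mice without overlap but not called (log2 fold change 0.77 ± 0.43, adjusted p = 0.347). In lungs it was also higher in 5 of 5 mice, at 126 to 365 against 307 to 457 CPM (0.99 ± 0.44, adjusted p = 0.397). The lung difference was called by limma and by the fit of the 2 groups alone. In skin, where Cxcr6 was most abundant, the log2 fold change was 0.06 ± 0.42, and in colon 0.20 ± 0.49.

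S1pr1 and Gpr183 were also called lower in ST2+ Tregs of VAT, and in no other tissue. S1pr1, the egress receptor, was at 378, 529.9, 506, 367 and 395 CPM in ST2- and 333, 295, 157, 204 and 127 CPM in ST2+ Tregs, without overlap (log2 fold change -0.96 ± 0.19, adjusted p = 0.000851). In lungs S1pr1 was at 814 to 975 CPM in ST2- and 544 to 655 CPM in ST2+ Tregs, lower in 5 of 5 mice without overlap but not called (-0.53 ± 0.19, adjusted p = 0.230). Gpr183, the oxysterol receptor, was at 147, 316, 227, 174 and 223 CPM in ST2- and 137, 99.7, 71.2, 68.0 and 148 CPM in ST2+ Tregs, lower in 5 of 5 mice with ranges that just overlapped (log2 fold change -1.05 ± 0.21, adjusted p = 0.00062). Both calls were lost when only the 10 VAT libraries were fitted (adjusted p = 0.111 and 0.115). The dissociation stress list of 12 genes was higher in ST2+ Tregs without overlap in 3 tissues: it summed to 2245 to 4410 CPM in ST2- and 5412 to 8137 CPM in ST2+ Tregs of VAT, to 2732 to 3980 and 4037 to 5021 CPM in lungs, and to 4703 to 6899 and 7041 to 8371 CPM in colon. Its ranges overlapped in blood, spleen and skin, and its part in the ST2 differences of any member was not tested. S1pr4 and Cxcr4 were called in 0 of 6 tissues, with log2 fold changes between -0.30 and 0.27 for S1pr4 and between -0.24 and 0.41 for Cxcr4.

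Whether the ST2 difference itself changed from tissue to tissue was tested as the interaction of tissue and ST2, an F test of 5 contrasts called at an adjusted p of at most 0.05. Of 8 members, 4 were called, against 1.43% of all genes: Cxcr5 (adjusted p = 0.000194), Cxcr3 (0.0002), S1pr1 (0.0169) and Gpr183 (0.0199). Ccr7 (0.409), Cxcr6 (0.201), Cxcr4 (0.809) and S1pr4 (0.954) were not, so this test does not show that their ST2 difference depended on the tissue. Cxcr6 was called with limma, with and without the mouse as a block, and in edgeR without mouse 5 (lowest adjusted p = 0.00353). Ccr7 was called in edgeR without mouse 4 (adjusted p = 0.0304). The Cxcr5 test took in groups with 0 or 1 counts, namely blood and VAT ST2+ Tregs and both skin groups. The Cxcr3 and Cxcr5 calls held in every other setting. Those of S1pr1 were lost in 6 of 19 settings, among them without mouse 2, 3 or 5, without the colon ST2+ libraries and without the VAT libraries rich in B cell genes (adjusted p up to 0.418), and those of Gpr183 in 4 of 19, without mouse 2, 3 or 4 and with a term for how many cells were sorted (up to 0.31).

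The second comparison set effector against central Tregs, ST2- CD44hi against CD44lo CD62L+, in spleen and lungs. Cxcr3 and Cxcr6 rose from near 0 in both tissues, and S1pr1 fell in spleen. Called members were 5 of 8 in spleen, where 5.03% of all genes were called, and 2 of 8 in lungs (5.53%). Cxcr3 was at 0.366, 0, 6.58, 0.516 and 0.388 CPM in spleen central Tregs and at 320.1, 333, 356, 339 and 372 CPM in CD44hi Tregs (log2 fold change 7.68 ± 0.62, adjusted p = 1.55e-14). In lungs it was at 0.735, 10.5, 0, 0 and 19.9 CPM in central and 363 to 476 CPM in CD44hi Tregs (log2 fold change 6.07 ± 0.53, adjusted p = 1.73e-13). Neither pair of groups overlapped.

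Cxcr6 was at 0.366, 3.18, 0.774, 0.516 and 0.388 CPM in spleen central Tregs, against 16.99 to 88.2 CPM in CD44hi Tregs (log2 fold change 5.04 ± 0.76, adjusted p = 1.52e-06), and at 0, 0, 0.937, 1.05 and 8.78 CPM in lung central Tregs against 126 to 365 CPM (log2 fold change 6.40 ± 0.66, adjusted p = 2.98e-11). The central Tregs of each organ were thus below every ST2- CD44hi library of that organ. Cxcr5 was higher in spleen CD44hi Tregs, where 57.5, 28.6, 37.9, 36.1 and 62.5 CPM in central Tregs compared with 173 to 202 CPM (log2 fold change 2.07 ± 0.59, adjusted p = 0.0218), but not in lungs, at 28.4 to 112 against 53.5 to 98.6 CPM (log2 fold change 0.38 ± 0.57, adjusted p = 0.837).

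S1pr1 was at 733, 708, 725, 714 and 787 CPM in spleen central Tregs and at 390.0, 412, 379, 348 and 352 CPM in CD44hi Tregs, a drop in 5 of 5 mice (log2 fold change -0.96 ± 0.19, adjusted p = 0.000299). In lungs the S1pr1 ranges overlapped, 859 to 1042 against 814 to 975 CPM (log2 fold change -0.10 ± 0.19). Cxcr4 was at 20.9, 17.1, 1.94, 27.9 and 8.54 CPM in spleen central and 41.1, 40.6, 10.9, 37.3 and 28.1 CPM in CD44hi Tregs, higher in 5 of 5 mice with overlapping ranges (log2 fold change 1.07 ± 0.30, adjusted p = 0.0158). Ccr7, S1pr4 and Gpr183 were not called in either organ, and Ccr7 fell short in spleen (log2 fold change -0.55 ± 0.41, adjusted p = 0.657) though its ranges, 622 to 741 and 423 to 517 CPM, did not overlap. The Cxcr4 call in spleen was lost in 4 of 20 settings (without mouse 1, 2 or 5, and with the 2 groups alone) and the Cxcr5 call in 3 of 20 (without mouse 3, 4 or 5), at adjusted p of up to 0.25 and 0.137.

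The third comparison set each tissue against spleen within ST2- CD44hi Tregs, so all 5 contrasts share the spleen libraries. Cxcr4 and Cxcr6 rose in lungs, VAT, colon and skin, S1pr1 rose in blood and lungs and fell in colon and skin, and Gpr183 rose in colon and skin. Called members were 6 of 8 in colon (11.0% of all genes), 5 in skin (30.9%), 4 in lungs (4.03%), 3 in VAT (5.78%) and 2 in blood (3.38%). Every Cxcr4 library of lungs (109.6 to 183 CPM), VAT (167 to 245 CPM), colon (119 to 178 CPM) and skin (204 to 288 CPM) was above the spleen libraries (41.1, 40.6, 10.9, 37.3 and 28.1 CPM). The log2 fold changes of Cxcr4 were 2.26 ± 0.28, 2.66 ± 0.28, 2.24 ± 0.28 and 2.96 ± 0.29 (adjusted p from 1.38e-08 to 6.7e-13), and blood, at 29.6 to 76.3 CPM, was not called (0.55 ± 0.28).

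Cxcr6 rose in 4 tissues. Spleen had 16.99 to 88.2 CPM, lungs 126 to 365, VAT 255 to 542, colon 379 to 737 and skin 766 to 1156 CPM, with no overlap between spleen and any of the 4 (log2 fold changes 2.43 ± 0.47, 3.57 ± 0.48, 3.84 ± 0.49 and 4.75 ± 0.51; adjusted p from 0.000226 to 1.93e-11). S1pr1 split the tissues. Blood (663, 917, 789, 856 and 811 CPM) and lungs (975, 865, 848, 859.6 and 814 CPM) lay above spleen (390.0, 412, 379, 348 and 352 CPM), with log2 fold changes of 1.10 ± 0.19 and 1.21 ± 0.19. Colon (162, 245, 168, 318 and 97.2 CPM) and skin (144, 185, 101, 130.0 and 199 CPM) lay below it (-0.92 ± 0.19 and -1.31 ± 0.20), and VAT overlapped with it (0.21 ± 0.19). None of these 4 groups overlapped with spleen.

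Gpr183 reached 428, 448, 502, 409 and 454 CPM in colon, against 166, 107, 219.6, 164 and 202 CPM in spleen (log2 fold change 1.38 ± 0.21, adjusted p = 6.71e-07), without overlap and under every other setting. In skin it was at 212 to 324 CPM, which overlapped with spleen (0.65 ± 0.20, adjusted p = 0.00969, and 0.114 without mouse 2). S1pr4 rose in blood (81.1 to 128 against 37.2 to 73.7 CPM, log2 fold change 1.09 ± 0.31) and was lower in colon (16.0 to 46.0 CPM, -0.98 ± 0.32), with calls lost in 4 and 6 of 20 settings. In lungs S1pr4, at 64.2 to 170.8 CPM, was not called (log2 fold change 0.965) but was in 9 of 20 other settings. Among these were DESeq2, limma and the fits without the colon ST2+ libraries or without the VAT libraries rich in B cell genes. Ccr7 rose in lungs (1.35 ± 0.42, adjusted p = 0.045, lost in 6 of 20 settings). In blood, at 832 to 1249 against 423 to 517 CPM, it was higher in 5 of 5 mice without overlap but was not called (1.08 ± 0.42, adjusted p = 0.136). Limma and the fit of the 2 groups alone called the blood difference. Ccr7 overlapped with spleen in VAT, colon and skin, and limma called it in VAT. Cxcr3 in VAT, at 489 to 609 against 320.1 to 372 CPM, was above spleen without overlap but not called (log2 fold change 0.64). This difference was called by limma and by the fit of the 2 groups alone.

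Cxcr5 fell away from spleen. It was called lower in VAT (-2.19 ± 0.59, adjusted p = 0.0133), where 424 of 532 counts came from mouse 1, and in colon (-1.75 ± 0.58, adjusted p = 0.0367). Both calls were lost without mouse 3, 4 or 5, and the VAT call also with a term for how many cells were sorted and with the 2 groups alone. In skin 1 count in 5 libraries compared with 2376 counts in spleen, a ratio of 1610 (95% counting interval 288 to 63400). In blood and lungs, Cxcr5 was below spleen in every library but was not called (-0.99 ± 0.57 and -1.33 ± 0.57). Both differences were called by limma, with and without the mouse as a block, and by the fit of the 2 groups alone.

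**Figure D4:**
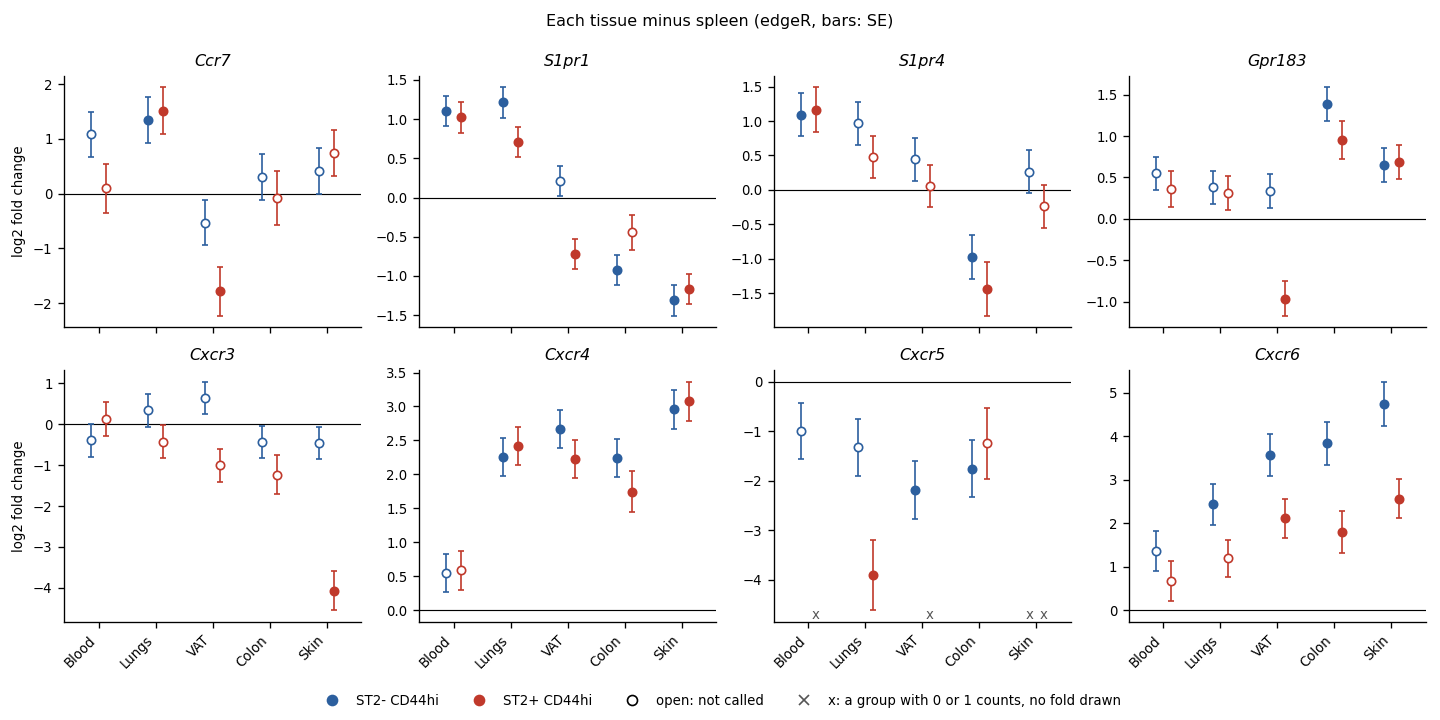
Log2 fold change (± SE) of each tissue minus spleen for each gene (panels), blue for ST2- and red for ST2+ CD44hi Tregs; filled points were called, open points were not, and a cross marks a group with 0 or 1 counts. Cxcr4 lay between 1.74 and 3.08 in lungs, VAT, colon and skin of both populations, while Cxcr3 in skin was -0.47 in ST2- and -4.07 in ST2+ Tregs.

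The same contrasts in ST2+ CD44hi Tregs share their own spleen libraries. Called members were 6 of 8 in VAT (11.2% of all genes), 6 in skin (29.1%), 4 in colon (10.4%), 4 in lungs (4.87%) and 3 in blood (4.11%). Cxcr4 rose in the same 4 tissues, from 24.6 to 55.8 CPM in spleen to 183 to 214 in lungs, 104 to 206 in VAT, 111 to 140.0 in colon and 264 to 399 CPM in skin (log2 fold changes 2.42 ± 0.28, 2.22 ± 0.28, 1.74 ± 0.31 and 3.08 ± 0.29). Cxcr6 rose in VAT, colon and skin (2.11 ± 0.44, 1.81 ± 0.49 and 2.57 ± 0.45) from a spleen level of 139 to 208 CPM, and the colon call was lost without mouse 3 or 4. In lungs Cxcr6, at 307 to 457 CPM, was above spleen without overlap but was not called (log2 fold change 1.19). It was called with limma, with the 2 groups alone and without mouse 5. S1pr1 rose in blood (1.02 ± 0.20) and lungs (0.71 ± 0.19) and fell in VAT (-0.72 ± 0.19) and skin (-1.17 ± 0.20), the VAT call being lost in 3 of 20 settings and the lung call without mouse 1 or 3 (adjusted p up to 0.0859 and 0.1).

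Cxcr3 fell in skin ST2+ Tregs, from 288 to 340.2 CPM in spleen to 6.39 to 42.4 CPM (log2 fold change -4.07 ± 0.48, adjusted p = 3.46e-10). In VAT and colon its ranges were below spleen without overlap but were not called (adjusted p = 0.0848 and 0.0897). Limma called both differences. Ccr7 rose in lungs (1.52 ± 0.42, adjusted p = 0.0182) and fell in VAT (-1.79 ± 0.44, adjusted p = 0.00307), calls that were lost without mouse 1, 2 or 5 and with limma respectively. Gpr183 rose in colon (431, 322 and 433 against 137 to 266 CPM, 0.96 ± 0.23) and skin (0.68 ± 0.20) and fell in VAT (-0.96 ± 0.21, adjusted p = 0.000516); without mouse 4, the colon and skin calls had adjusted p of 0.0581 and 0.0585. S1pr4 rose in blood (1.16 ± 0.32) and fell in colon (-1.44 ± 0.39), and these calls were lost in 4 of 20 and 2 of 19 settings.

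Cxcr5 was near or at 0 in most ST2+ tissues. Against 408 counts in spleen ST2+ Tregs, blood and VAT had 0, at least 96.8-fold and 114-fold lower, skin had 1 (ratio 284, counting interval 50.8 to 11300), and lungs were lower by a log2 fold change of -3.90 ± 0.71 (adjusted p = 0.000107). Colon ST2+ Tregs, at 26.4, 5.16 and 11.5 CPM, were not called (-1.24 ± 0.72). The 3 colon ST2+ libraries were those rich in myeloid genes, and the part of those cells in the colon values was not tested.

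In central Tregs, lungs were set against spleen. Only Cxcr4 was called, 1 of 8 members against 3.16% of all genes. Spleen central Tregs had 20.9, 17.1, 1.94, 27.9 and 8.54 CPM and lung central Tregs 189, 134, 176, 147 and 153 CPM, a 10.6-fold difference without overlap (log2 fold change 3.40 ± 0.30, adjusted p = 3.01e-13). This was larger in size than the lung difference of either CD44hi population, a comparison that was not tested. Ccr7 was at 622 to 741 CPM in spleen and 1114 to 1492 CPM in lungs, apart but not called (0.98 ± 0.42, adjusted p = 0.226). It was called by limma and by the fit of the 2 groups alone. Cxcr3 was at most 19.9 CPM and Cxcr6 at most 8.78 CPM in the central libraries of both organs.

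**Figure D5:**
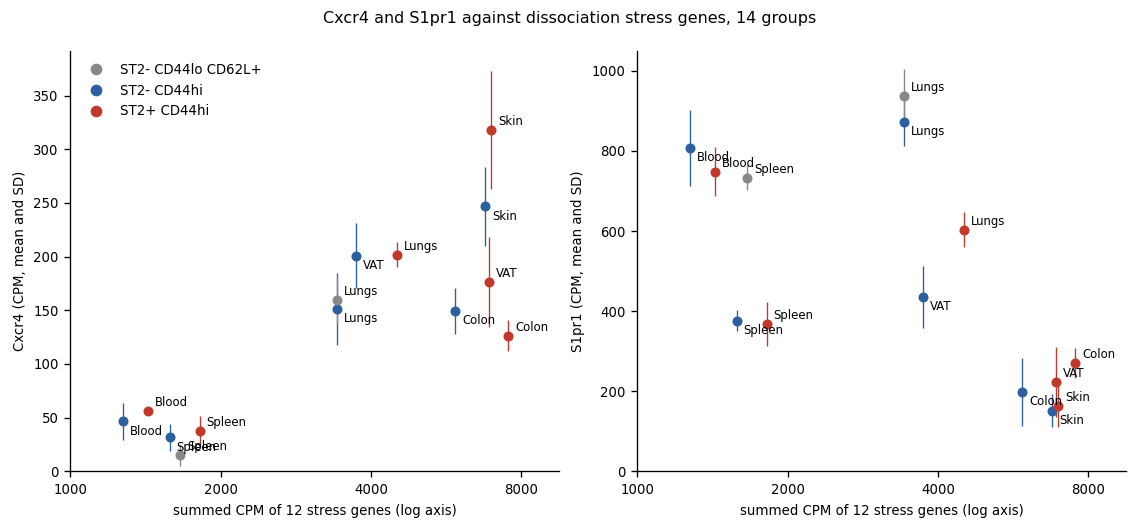
Mean level (± SD) of Cxcr4 and S1pr1 in CPM against the summed CPM of 12 dissociation stress genes (log axis) for the 14 groups. Cxcr4 was higher and S1pr1 lower where the stress sum was higher, with the skin and colon groups at the right; Pearson r was 0.836 and -0.685.

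Genes induced by tissue dissociation moved with tissue as well. Against spleen, 0, 6, 6, 10 and 10 of 12 rose and 2, 1, 0, 0 and 0 fell in ST2- Tregs of blood, lungs, VAT, colon and skin, 0, 6, 9, 8 and 11 rose and 3, 0, 0, 0 and 0 fell in ST2+ Tregs, and 4 rose in lung central Tregs. Of all genes, 3.38, 4.03, 5.78, 11.0 and 30.9% were called in these ST2- contrasts and 4.11, 4.87, 11.2, 10.4 and 29.1% in the ST2+ contrasts. In lung central Tregs the share was 3.16%. The same shares stand beside the counts of each list set against spleen below. The 12 dissociation genes summed to 939.7 to 2589 CPM in blood and spleen libraries of the CD44hi gates and to 2245 to 8371 CPM in lungs, VAT, colon and skin. Over the means of 14 groups, which share mice, tissues and digestion, the correlation with the log2 stress sum was r = 0.836 for Cxcr4 (Spearman's rho 0.692), 0.61 for Cxcr6 (0.815), -0.685 for S1pr1 (-0.688), -0.589 for S1pr4 (-0.701) and between -0.493 and 0.309 for the other 4. Lung central Tregs, with a stress sum of 2939 to 4155 CPM, had Cxcr4 but almost no Cxcr6, and S1pr1 was high in both lung CD44hi groups. The part of digestion in the levels of Cxcr4, Cxcr6 and S1pr1 was not tested.

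The neighbours of these receptors were described from gene lists. Of 18 genes of lymph node entry and quiescence, 6 fell and 1 rose in blood ST2+ against ST2- Tregs (median log2 fold change -0.78, against 0.0 over all genes). In lungs 5 fell and 0 rose, and in VAT 5 fell and 1 rose. In spleen, skin and colon, 1, 0 and 1 were called, counted in either direction. Foxp1, a factor of quiescent T cells, was at 269 ± 60.8 CPM (n = 4) against 606 ± 71.7 CPM (n = 5) in blood (log2 fold change -1.17 ± 0.15, adjusted p = 3.46e-07). Tcf7, a factor of resting and stem-like T cells, was at 68.3 ± 43.8 against 276 ± 111 CPM in VAT (n = 5 each, -2.0 ± 0.34, adjusted p = 5.26e-05). Against spleen, the list split by tissue in ST2- Tregs: 8 rose and 0 fell in blood, 4 rose and 0 fell in lungs, while 1 rose and 8 fell in skin (median -1.77), 1 rose and 6 fell in VAT and 3 rose and 5 fell in colon. Itga4, the α4 integrin chain, was at 8.76 ± 5.76 CPM in skin and 404 ± 97.6 CPM in spleen (n = 5 each, -5.56 ± 0.33, adjusted p = 2.6e-21). In ST2+ Tregs 2 rose and 0 fell in blood, 1 rose and 1 fell in lungs, 2 rose and 9 fell in skin, 0 rose and 9 fell in VAT and 1 rose and 5 fell in colon. Against central Tregs, 1 rose and 4 fell in spleen and 0 and 4 in lungs, among them Satb1, a chromatin organizer of resting T cells, at 153 ± 20.5 against 705 ± 61.8 CPM in spleen (n = 5 each, -2.20 ± 0.39). Beside the counts of this list in skin, 30.9% (ST2-) and 29.1% (ST2+) of all genes were called against spleen.

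Of 20 genes of the S1P pathway, 19 were tested (S1pr5 was not). For ST2, 1 gene was called in blood, lungs and VAT each and 0 in spleen, colon and skin. Klf2, the factor that drives S1pr1, was at 216 ± 14.3 CPM in ST2+ and 367 ± 64.1 CPM in ST2- Tregs of the lungs (n = 5 each, -0.76 ± 0.17, adjusted p = 0.00675), and Cd69, whose product removes S1PR1 from the surface, at 1062 ± 201 against 638 ± 202 CPM in VAT (n = 5 each, 0.74 ± 0.22, adjusted p = 0.0387). Klf2 also fell with S1pr1 from spleen central to CD44hi Tregs, from 243 ± 50.8 to 129 ± 18.6 CPM (n = 5 each, -0.91 ± 0.17, adjusted p = 8.05e-05). Klf2 and S1pr1 did not move alike in every tissue: in ST2- Tregs, Klf2 rose against spleen in blood (1.67 ± 0.17), lungs (1.5 ± 0.17) and also colon (1.09 ± 0.17), where S1pr1 fell. Cd69 rose against spleen in lungs, VAT, colon and skin (0.97 ± 0.22, 0.75 ± 0.22, 1.73 ± 0.22 and 1.42 ± 0.22), as did Gna13, a G protein that carries confining signals of S1P receptors (1.28 ± 0.14, 1.24 ± 0.14, 1.21 ± 0.14 and 2.39 ± 0.15). Over the 5 tissues, 1, 3, 2, 4 and 5 genes of the list rose and 1, 0, 0, 1 and 1 fell in ST2- Tregs of blood, lungs, VAT, colon and skin, and in ST2+ Tregs 2, 1, 2, 5 and 6 rose and 0, 0, 0, 0 and 2 fell. The count in skin ST2- Tregs was near the share of all genes called there (30.9%).

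Follicular genes rose in the effector comparison in both organs, while Cxcr5 rose in spleen and was not called in lungs. In spleen, 9 of 14 rose and 0 fell from central to CD44hi Tregs (median log2 fold change 2.42, against 0.01 over all genes), and in lungs 6 rose and 0 fell. Maf, a factor of follicular and other effector T cells, was at 155 ± 21.2 against 9.89 ± 7.22 CPM in spleen (n = 5 each, 3.92 ± 0.35, adjusted p = 3.56e-13), and Icos, a costimulatory receptor, at 388 ± 44.4 against 125 ± 26.3 CPM (1.63 ± 0.15). The list did not follow Cxcr5 between ST2+ and ST2- Tregs: 2 rose and 1 fell in blood, 1 rose and 1 fell in VAT, and 0 were called in spleen, lungs, colon and skin. In VAT the gene that fell was Sh2d1a, an adaptor of T cell help to B cells, at 44.2 ± 29.3 against 162 ± 60.2 CPM (n = 5 each, -1.86 ± 0.23, adjusted p = 9.09e-08). Against spleen, 0, 1, 2, 3 and 4 genes rose and 5, 1, 3, 2 and 4 fell in ST2- Tregs of blood, lungs, VAT, colon and skin. Pdcd1, which encodes PD-1, was among those lower in blood, at 55.0 ± 39.7 against 414 ± 51.7 CPM (n = 5 each, -2.93 ± 0.42). In ST2+ Tregs 0, 1, 1, 2 and 5 rose and 5, 1, 3, 2 and 3 fell. In skin, 30.9% (ST2-) and 29.1% (ST2+) of all genes were called against spleen.

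Genes of the T-bet programme were compared with Cxcr3, a known target of T-bet. In VAT ST2+ Tregs 3 of 14 fell and 0 rose, among them Il18r1, an IL-18 receptor chain, at 80.5 ± 69.3 against 304 ± 103 CPM (SD, n = 5 each, log2 fold change -1.90 ± 0.34, adjusted p = 0.000148). In skin, where Cxcr3 differed most, 0 of 14 were called and the median log2 fold change was -0.05. Tbx21, which encodes T-bet, was at 37.0 to 185 CPM in ST2- and 0 to 27.3 CPM in ST2+ Tregs of skin, apart but not called (-3.31 ± 1.01, adjusted p = 0.205), and at 63.0 to 224 and 0 to 41.3 CPM in VAT (-2.80 ± 0.97, adjusted p = 0.0951). Ifng, the type 1 cytokine gene, was at 85.2 ± 54.3 against 11.8 ± 16.2 CPM in skin and 76.3 ± 47.7 against 9.87 ± 11.7 CPM in VAT (n = 5 each, adjusted p = 0.284 and 0.0699). Tbx21 and Ifng were chosen here after their values were seen. In blood 1 rose and 1 fell, and spleen, lungs and colon had 0. Tbx21 was at 34.0 ± 20.4 CPM in spleen CD44hi and 1.01 ± 2.25 CPM in central Tregs (n = 5 each, 4.95 ± 1.19, adjusted p = 0.00394), and 5 of 14 rose and 2 fell in that comparison, with 4 and 1 in lungs. Against spleen, 2, 5, 5, 4 and 6 rose and 1, 0, 1, 1 and 1 fell in ST2- Tregs, and 1, 3, 3, 3 and 4 rose and 1, 1, 3, 1 and 0 fell in ST2+ Tregs. The count in skin ST2+ Tregs was near the share of all genes called there (29.1%).

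Genes of tissue retention were compared with Cxcr6. Against spleen, 2, 3, 4, 10 and 12 of 14 rose and 3, 0, 1, 0 and 0 fell in ST2- Tregs of blood, lungs, VAT, colon and skin, and 2, 3, 5, 7 and 8 rose and 0, 0, 2, 0 and 0 fell in ST2+ Tregs. Of all genes, 3.38, 4.03, 5.78, 11.0 and 30.9% were called in these ST2- contrasts and 4.11, 4.87, 11.2, 10.4 and 29.1% in the ST2+ contrasts. Rgs2, which dampens signals of G protein-coupled receptors, was at 1118 ± 135 CPM in skin and 86.9 ± 35.3 CPM in spleen ST2- Tregs (n = 5 each, 3.69 ± 0.24). For ST2, 3 rose and 1 fell in blood, 1 rose in spleen and in VAT, and 0 were called in lungs, colon and skin. Itgae, the integrin chain that binds E-cadherin, rose in blood ST2+ Tregs, from 73.8 ± 41.0 CPM (n = 5) to 385 ± 113 CPM (n = 4, 2.38 ± 0.59, adjusted p = 0.0104). From central to CD44hi Tregs, 5 rose in spleen, 4 rose in lungs and 0 fell. Between lung and spleen central Tregs, where Cxcr4 was the called member, 5 retention genes rose, 3 of the S1P list, 3 of the T-bet list, 3 of the follicular list and 2 of the lymph node list, and the only gene of these lists that fell was 1 follicular gene.

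Few ligand genes were measurable in these T cells. Of 8 genes encoding ligands of the members, 3 passed the filter (Cxcl10, Cxcl12 and Cxcl16). Cxcl10, a CXCR3 ligand, was at 75.0 ± 6.58 CPM in spleen CD44hi and 2.01 ± 4.21 CPM in central Tregs (n = 5 each, 5.17 ± 0.79, adjusted p = 1.72e-06), and rose in lungs too (5.90 ± 0.84). Cxcl16, the CXCR6 ligand, was at 110 ± 25.6 CPM in colon ST2+ Tregs (n = 3) and 2.79 ± 1.98 CPM in spleen (n = 5), and Cxcl12, the CXCR4 ligand, at 93.0 ± 80.2 CPM in colon ST2+ Tregs against 0 in spleen. Both were highest in the colon libraries that also held myeloid and stromal or epithelial genes, and the part of other cells in them was not tested. For ST2, 0 of 3 were called in any tissue. Against spleen, the ligand genes called were 1 lower in blood and 1 higher in colon and in skin for ST2- Tregs, and 1 lower in blood, 1 higher in VAT and 2 higher in colon and in skin for ST2+ Tregs. Of 4 genes that make or break down the GPR183 ligand, Cyp27a1 alone was tested, at 26.99 ± 5.63 CPM in the same 3 colon ST2+ libraries and 0 in spleen ST2+ Tregs.

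The genes whose levels went most like each member's were ranked by Pearson r of mean log2 CPM over the 14 groups, which share mice and tissues. The closest to S1pr1 were Ripor2 (r = 0.982), Rasgrp2 (0.968) and Ptpra (0.959), and Ripor2 also ranked first by Spearman's rho (0.991). For Cxcr6 they were Osbpl3 (0.985), Id2 (0.983), a factor of effector lymphocytes, and Myadm (0.981), and for Cxcr4 they were Tgif1 (0.975), Ramp3 (0.969) and Per1 (0.968), a clock gene. For Ccr7 they were Znrf1 (0.93), Lrig1 (0.92) and Abtb2 (0.885), with Znrf1 first by rho as well (0.925), and for S1pr4 Mrtfa (0.95), Mark2 (0.885) and Kbtbd11 (0.873). The closest to Cxcr3 were Myo1f (0.924), the chemokine gene Ccl5 (0.916) and Serp2 (0.913), those to Cxcr5 were Cd200 (0.92), Tdp1 (0.913) and Ddx59 (0.905), and those to Gpr183 were Cdk2ap2 (0.853), Psme4 (0.85) and Slc35a3 (0.847). Between members, the most alike were S1pr1 and S1pr4 (r = 0.726, rho = 0.851). Cxcr4 and Cxcr6 had r = 0.645 (rho = 0.736), S1pr1 and Cxcr6 had r = -0.678 (rho = -0.78), and Cxcr3 and Cxcr6 had r = 0.65 but a rho of 0.0022.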

How the data were processed

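RNA-seq was made from sorted Tregs with the SMART-Seq v4 and NexteraXT kits and read as 58-base single reads. The authors aligned reads with STAR to GRCm38, assigned them to Ensembl genes with HTSeq 0.4.1 and deposited raw counts per gene and library, not normalized. These kits do not mark strand, and the counting's strand setting is not given in the sources used here. The table held 53465 gene IDs, of which 21865 were protein-coding in GENCODE M21. Every column was used (0 were not).

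The 67 libraries over 1000000 counts (median 2039002, 11877 to 19119 genes with a count) were analysed in R 4.3.3 with edgeR 4.0.16. Genes were kept if protein-coding and at 1 CPM or more in 10% of libraries. At the median depth 1 CPM is about 2 counts, so low genes are set by few reads. One quasi-likelihood model of 14 groups with TMM factors (0.8915 to 1.079) served all contrasts, with Benjamini-Hochberg adjustment over the 13173 genes. A group with 0 counts was set at a floor of 3 counts over the group, and intervals and floors cover counting error only. A prior count of 2 was used for log2 CPM. Alternatives were limma 3.58.1 (voom, weighted by library quality), DESeq2 1.42.0, other filters, normalization factors and library sets, a term for how many cells were sorted, the mouse as a block and leaving out each mouse. The code was tested on simulated data. Figures were drawn in Python 3.11.15.

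The replicate numbers mark 5 mice, each of which gave every group, so libraries are paired by animal. Deviations of the 27 pairs of the same tissue and mouse correlated at a mean r of 0.0716 (-0.00633 to 0.18), against -0.0175 for 108 pairs of different mice, and limma's consensus correlation was 0.03887. No 2 libraries of a group had identical counts (0 of 129 pairs). The study's methods name no block, so the model had none.

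The members and gene lists were chosen with earlier results of these data known. Genes named beside the members were the 3 most like each in mean log2 CPM and up to 4 called genes of smallest adjusted p for each list and family of comparisons. A few genes that this rule takes are not reported here. The lists were lymph node entry and quiescence, S1P pathway, EBI2 ligand metabolism, follicular, T-bet, tissue retention, ligands, other chemokine receptors, dissociation stress, and markers of the gates and of other cells.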

Additional observations from a re-analysis of the deposited data

Results flagged for a closer look

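Within groups of 4 or 5 libraries, a level was singled out where the highest or lowest library lay further from its nearest neighbour than Dixon's 95% limit allows. This held in 16 of 102 groups (15.7%), where chance gives about 1 in 20 (5%). Groups with many libraries at 0 meet the limit with very few counts.

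Ccr7 was high in blood ST2- Tregs of mouse 2 (1249 CPM, others 832.2 to 951.1), in VAT ST2+ Tregs of mouse 4 (163.1 CPM, others 25.28 to 49.85) and, in mouse 4, in both spleen ST2- (517.2 CPM, others 422.6 to 444.5) and spleen central Tregs (741.1 CPM, others 622.3 to 649.7). Gpr183 was high in blood ST2+ Tregs of mouse 4 (333.2 CPM, others 230.5 to 247.6). Cxcr4 was high in blood ST2- Tregs of mouse 2 (76.31 CPM, others 29.58 to 42.99) and low in VAT ST2+ Tregs of mouse 2 (104.3 CPM, others 180.3 to 205.8). Cxcr5 was high in VAT ST2- Tregs of mouse 1 (148.7 CPM, others 0 to 31.97), and single counts in skin ST2- Tregs of mouse 4 (0.699 CPM) and skin ST2+ Tregs of mouse 1 (0.4263 CPM) stood against 0 in the other libraries.

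Cxcr6 was high in mouse 5 in blood ST2- (300.2 CPM, others 0 to 86.19), spleen ST2- (88.2 CPM, others 16.99 to 28.04) and lung central Tregs (8.776 CPM, others 0 to 1.05), and in mouse 2 in lung ST2- (364.7 CPM, others 126.3 to 190.5) and spleen central Tregs (3.175 CPM, others 0.3665 to 0.7743). Cxcr3 was at 6.582 CPM in spleen central Tregs of mouse 3, where the others had 0 to 0.5164.

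The ST2 difference itself differed between the 6 tissues for 4 members by the interaction test of edgeR with Benjamini-Hochberg adjustment: Cxcr5 (adjusted p = 0.0001937), Cxcr3 (0.0002001), S1pr1 (0.01688) and Gpr183 (0.0199). The S1pr1 and Gpr183 calls were lost in 6 and 4 of 19 settings, and the Cxcr5 test took in groups with 0 or 1 counts.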

How the results depend on the processing

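The 160 member comparisons were repeated under 20 settings, 3 of which could not give a value for every comparison. Of 67 calls, 40 held under every setting run for them and 27 were lost under at least 1, 20 comparisons were gained under at least 1, and 0 reversed. The number of members called between lung and spleen central Tregs was 1, and 2 under DESeq2, limma with and without the replicate block, and a fit of the groups compared alone, and 1 to 2 when each mouse was left out. The number called for the interaction was 4, and 2 to 4 when each mouse was left out, with 2 without mouse 2 and without mouse 3. With the mouse as a replicate block in edgeR, calls were 12 of 48 for ST2, 7 of 16 for CD44, 21 of 40 and 23 of 40 for tissue in ST2- and ST2+ Tregs, 1 of 8 for central Tregs and 4 of 8 for the interaction. Against 20 of 40 without the block, the only call that changed was S1pr4 in lungs against spleen, which was gained. The causes of these changes were not tested. Depth limits the low levels, such as Cxcr5 in skin and Cxcr3 and Cxcr6 in central Tregs, which rest on few counts.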

Other observations

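The other chemokine receptors, 14 of 18 tested, went mostly one way. In ST2+ against ST2- Tregs, 5 rose in blood, 2 in spleen, 3 in lungs and 2 in VAT, 0 were called in colon and skin, and 0 fell in any tissue. Ccr2, the receptor of monocyte chemoattractants, was at 709.6 ± 45.3 CPM (n = 4) in blood ST2+ and 110.2 ± 89.4 CPM (n = 5) in blood ST2- Tregs (log2 fold change 2.69 ± 0.46, adjusted p = 8.31e-05 by edgeR). Ccr1, a receptor of CCL3 and CCL5, was at 311 ± 75.1 against 5.18 ± 6.45 CPM in VAT (n = 5 each, 5.90 ± 0.83, adjusted p = 2.28e-06). From central to CD44hi Tregs, 7 rose in spleen and 8 in lungs, and 0 fell. Ccr8, a receptor of skin-homing T cells and Tregs, was at 149 ± 29.1 against 13.4 ± 2.72 CPM in spleen (n = 5 each, 3.47 ± 0.35, adjusted p = 2.69e-11). Against spleen, 1, 3, 7, 10 and 10 rose in ST2- Tregs and 3, 5, 5, 8 and 10 in ST2+ Tregs of blood, lungs, VAT, colon and skin, while 1 fell in blood of each population and 1 in skin ST2+ Tregs. Between central Tregs of lungs and spleen, 3 rose. Beside the counts of this list in skin, 30.9% (ST2-) and 29.1% (ST2+) of all genes were called against spleen.

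Markers of other cells were called mainly in colon and skin. Myeloid markers rose in 9 of 10 in colon ST2+ against spleen ST2+ Tregs and in 4 of 10 in the same contrast of ST2- Tregs. Of 10 stromal and epithelial markers, 5 rose and 2 fell in skin ST2- Tregs and 4 rose and 1 fell in skin ST2+ Tregs against spleen. Of the 3 B cell markers tested, 1 rose in colon and 1 fell in skin in each population. Of 2 CD8 and NK markers tested, 1 fell in skin ST2- and 1 rose in skin ST2+ Tregs. Of all genes, 30.9% were called in skin ST2- and 29.1% in skin ST2+ Tregs against spleen.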
